A study of Mus musculus with 12 samples.

Results

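The comparison set non-endothelial stromal cells (SCs) of gut-draining mesenteric lymph nodes (mLN) against the same sorted cells of skin-draining peripheral lymph nodes (pLN, inguinal with axillary or popliteal) in mice kept specific pathogen-free (SPF). It used 6 of the 12 RNA-seq libraries, 3 from mLN and 3 from pLN, and was read over every gene that had 1 RPKM or more in 3 or more of the 12 libraries. The unit RPKM is a read count divided by the exon length of the gene and by the mapped reads of the library. Of 10253 genes in the table, 9758 were tested. The mice were adult BALB/c animals and, by the methods, female unless stated otherwise. The BALB/c line that the methods list under SPF conditions carries the CD90.1 allele of Thy1. That both SPF groups came from this line is inferred. Cells had been sorted as negative for CD45, CD24 and CD31 and positive for podoplanin (Pdpn, gp38), so each library is a bulk of every subset that passes this gate, and fewer cells of a type cannot be told apart from less RNA per cell. The sources used here do not say how many mice or nodes a library holds, so p-values measure the spread between these libraries. The other 6 libraries, mLN and pLN of germ-free (GF) BALB/c mice from another colony, entered the fit for its estimate of spread and 1 closing comparison.

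Lymph node SCs build the scaffold on which lymphocytes meet antigen. Fibroblastic reticular cells (FRCs) secrete the chemokines and survival factors that place T and B cells, and CD34+ SCs lie around vessels and in the capsule, where they lay down matrix. The lymphotoxin beta receptor, acting through NF-kB, is the signal that lymphoid tissue inducer cells and lymphocytes use to switch these chemokines on. Nodes of the gut mesentery arise in visceral mesenchyme and skin-draining nodes in mesenchyme of the body wall and limbs.

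In mLN 388 genes were higher and 625 were lower than in pLN, which is 10.4% of the genes tested (limma on log2(RPKM + 1), Benjamini-Hochberg adjusted p below 0.05 and at least 2-fold). The higher genes were 3.98% and the lower ones 6.41% of all tested. Differences of at least 4-fold were found for 64 higher and 241 lower genes, and of at least 16-fold for 5 higher and 26 lower ones. The larger side turned at adjusted p alone, with 1925 higher (19.7%) and 1345 lower genes (13.8%), 33.5% in all, while the median change of all tested genes was 0.095 on the log2 scale. With median-of-ratios scaling this median was 0.011. The part of scaling in the turn was not tested. Libraries of the 2 nodes did not overlap for 1010 of the 1013 called genes and for 43.5% of all tested genes. Genes called lower in mLN held 3.15% of the summed RPKM in mLN and 16.5% in pLN, and genes called higher held 12.9% in mLN and 4.06% in pLN. Calls were more frequent among abundant genes, at 30.9% of those averaging over 200 RPKM against 8.35% of those between 2 and 10 RPKM.

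**Figure D1:**
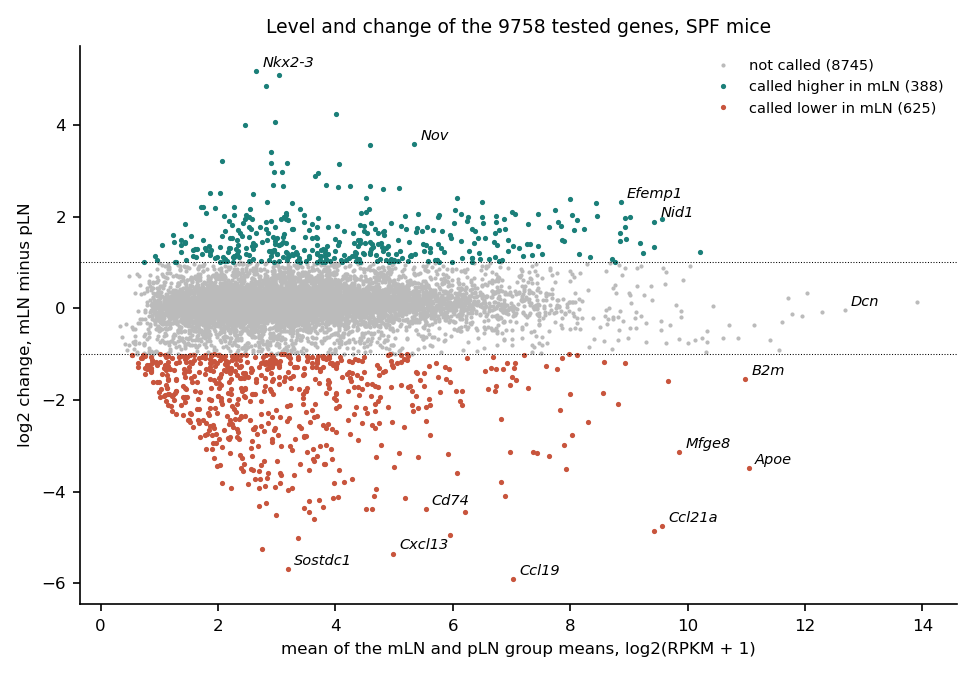
Each point is 1 of the 9758 tested genes in SPF mice, with the mean of the mLN and pLN group means on the x axis, as log2(RPKM + 1), and the log2 change of mLN minus pLN on the y axis (n = 3 libraries each). Dotted lines mark 2-fold, and the 625 genes called lower reach changes near -6 while the 388 called higher reach about 5.

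Recovered reads came to between 8.13 and 9.79 M per mLN library and between 8.54 and 12.3 M per pLN library, and 9365 to 9588 genes reached 1 RPKM in a library. Log2 values of libraries of the same node correlated at 0.973 to 0.994 (Pearson, across genes, which are not independent). The library of replicate 2 correlated least with the others in both nodes. It was the lowest of the 3 mLN libraries for 347 of the 625 genes called lower, and the highest of the 3 pLN libraries for 368 of them. With neither library of replicate 2 in the fit, 361 genes were called higher and 581 lower.

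Of the sort markers Pdpn, Pecam1 and Cd24a had values. Ptprc, which encodes CD45, was not listed, so the absence of CD45 could not be checked. Pdpn stood at 61.9, 58.1 and 66.3 RPKM in mLN, against 68, 76.1 and 66.2 RPKM in pLN, values that overlap (log2 change -0.17). Of 9 markers of non-endothelial node stroma, Dcn, Lum and the fibrillar collagens among them, 0 were called by limma (5 at an unadjusted p below 0.05, and 0 called by voom, limma's weighted test on read counts). Of these markers 1 was called higher without mLN SPF replicate 1, and 1 was called lower with median-of-ratios and with quantile scaling. Their summed RPKM was 14200 to 17200 in mLN and 15300 to 16000 in pLN. The endothelial gene Pecam1, which encodes CD31, was between 0.658 and 1.33 RPKM in mLN and between 0.396 and 1.17 RPKM in pLN, and 7 of 12 blood endothelial markers stayed under 1 RPKM in all 6 libraries. The list summed to 89.9 to 98.2 RPKM in mLN and 147 to 165 RPKM in pLN, with Tek higher (1.75) and Plvap lower (-3.25) in mLN. Cd24a was at 1.95, 1.25 and 1.44 RPKM in mLN, against 3.02, 5.44 and 3.65 RPKM in pLN, without overlap but under 2-fold on the log2(RPKM + 1) scale (-0.96). Perivascular and smooth muscle markers did differ, with 8 of 10 tested members lower in mLN and none at 0. They summed to between 33.9 and 63.6 RPKM in mLN and between 553 and 606 RPKM in pLN. The adipocyte markers Car3 and Fabp4 were both higher in mLN, where the list summed to 94.5 to 106 RPKM against 16.1 to 24.5 RPKM in pLN. Of leukocyte markers 1 myeloid gene was tested and 0 of T, NK or B cells, with myeloid sums of 1.35 to 2.75 RPKM in mLN and 1.75 to 5.63 RPKM in pLN. The table held only 2 of 11 listed myeloid markers, 1 of 10 of T and NK cells and 1 of 8 of B cells. These sums therefore say little about the content of leukocytes. The part of these cells in the results that follow was not tested.

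**Figure D2:**
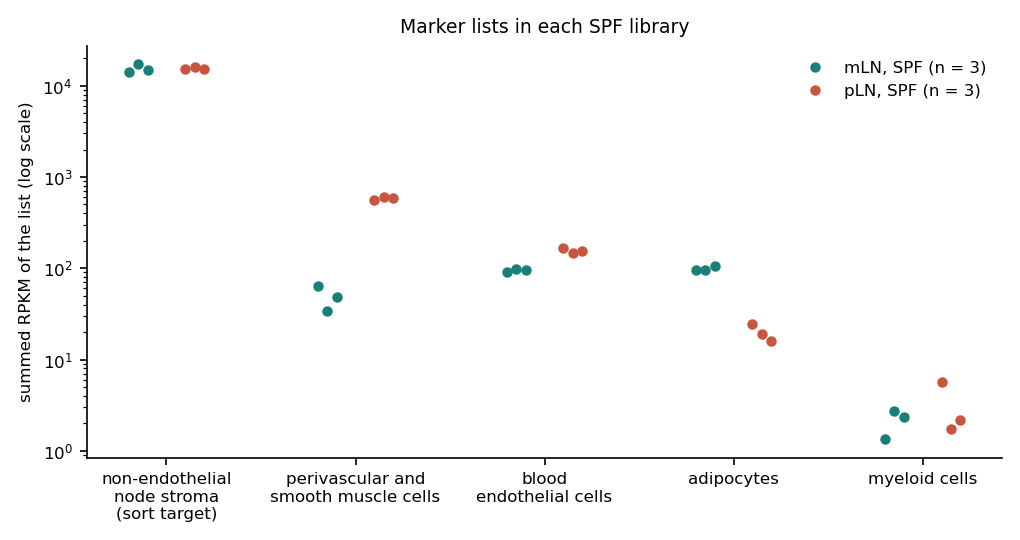
Summed RPKM of 5 marker lists on a log axis, with the 3 mLN libraries left of the 3 pLN libraries and 1 point per library. The libraries of the nodes overlap for the sort target, at 14200 to 17200 and 15300 to 16000 RPKM, while perivascular markers sum to 33.9 to 63.6 RPKM in mLN and 553 to 606 RPKM in pLN.

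Transcription factors that mark the position of mesenchyme held some of the largest differences. Among 10 tested factors of visceral mesoderm, 4 were higher and 2 lower in mLN. Nkx2-3 (chr19:43612325-43615892, GRCm38), a homeobox factor of spleen and gut mesenchyme, was at 41.6, 33.8 and 35 RPKM in mLN, against 0, 0.089 and 0.0307 RPKM in pLN (log2 change 5.18 ± 0.11, limma adjusted p = 1.19e-13). Tcf21 (chr10:22817281-22820174), a bHLH factor of visceral mesenchyme, was at 43.7, 45.1 and 52.6 RPKM in mLN, against 0.308, 0.461 and 0.477 RPKM in pLN (log2 change 5.09 ± 0.13, limma adjusted p = 4.23e-13). All mLN libraries of both genes lay far above all pLN libraries, and pLN replicate 1 of Nkx2-3 was at 0. Wt1, a zinc finger factor of mesothelium and visceral stroma and the only mesothelial marker in the table, followed at 8.05, 6.8 and 7.08 RPKM in mLN, against 0.854, 0.608 and 1.01 RPKM in pLN (log2 change 2.19 ± 0.13, limma adjusted p = 3.41e-09). Meis1, a partner of Hox proteins, was higher with a smaller change of 1.19. Against this direction ran Tbx3, at 0.0827 to 0.136 RPKM in mLN and 2.35 to 3.32 RPKM in pLN (-1.77), and the forkhead factor Foxf1 (-1.27), which was lower in all mLN libraries but lost its call without pLN SPF replicate 2, at -0.98, leaving 1 lower factor. Gata6 was at 15 to 17.1 RPKM in mLN and 10.7 to 13 RPKM in pLN, and its change of 0.43 stayed under 2-fold.

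Factors of limb and body-wall mesenchyme went the other way, with 6 of 7 tested members lower in mLN, 0 higher and a median change of -1.52, beside 6.41% of all tested genes lower. Tbx15, a T-box factor of skin and limb mesenchyme, stood at 0.17, 0.0289 and 0.166 RPKM in mLN, against 12.2, 19.9 and 13.2 RPKM in pLN (log2 change -3.82 ± 0.15, limma adjusted p = 8.57e-11). Meox2, a homeobox factor of somites and limb muscle, was at 1.78, 2.55 and 2.11 RPKM in mLN, against 21.4, 21.5 and 18.2 RPKM in pLN (-2.77). The libraries did not overlap for either gene, and the mLN libraries of Tbx15 were close to 0. Tbx18 (-2.2), Meox1 (-1.52), Msx1 (-1.39) and Prrx1 (-1.2) were lower as well, and Prrx2, at 12.8 to 19.7 RPKM in mLN and 10.3 to 24.6 RPKM in pLN, was the member without a call. None of the 9 tested Hox genes was called by limma, though 7 had an unadjusted p below 0.05 and voom on recovered reads called 1. Their changes lay between -0.75 for Hoxa7 and 0.83 for Hoxa10, with a median of -0.50. Of 39 further forkhead, SOX, KLF and other stromal factors 3 were higher and 8 lower. Foxs1, a forkhead gene known from pericytes, was at 5.56, 5.03 and 4.83 RPKM in mLN, against 35, 31.5 and 36.8 RPKM in pLN (-2.53), and the SOX family gene Sox4 at 8.57, 5.58 and 7.43 RPKM in mLN, against 24.4, 25.8 and 27.7 RPKM in pLN (-1.73). The libraries of the nodes did not overlap for either gene. The mesenchymal repressor gene Snai2 (-1.19) was also lower, and Zeb1 (1.27) and Ebf2 (1.65) were higher. Leaving out pLN SPF replicate 1 gave 5 higher factors, and leaving out pLN SPF replicate 2 gave 5 lower ones.

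**Figure D3:**
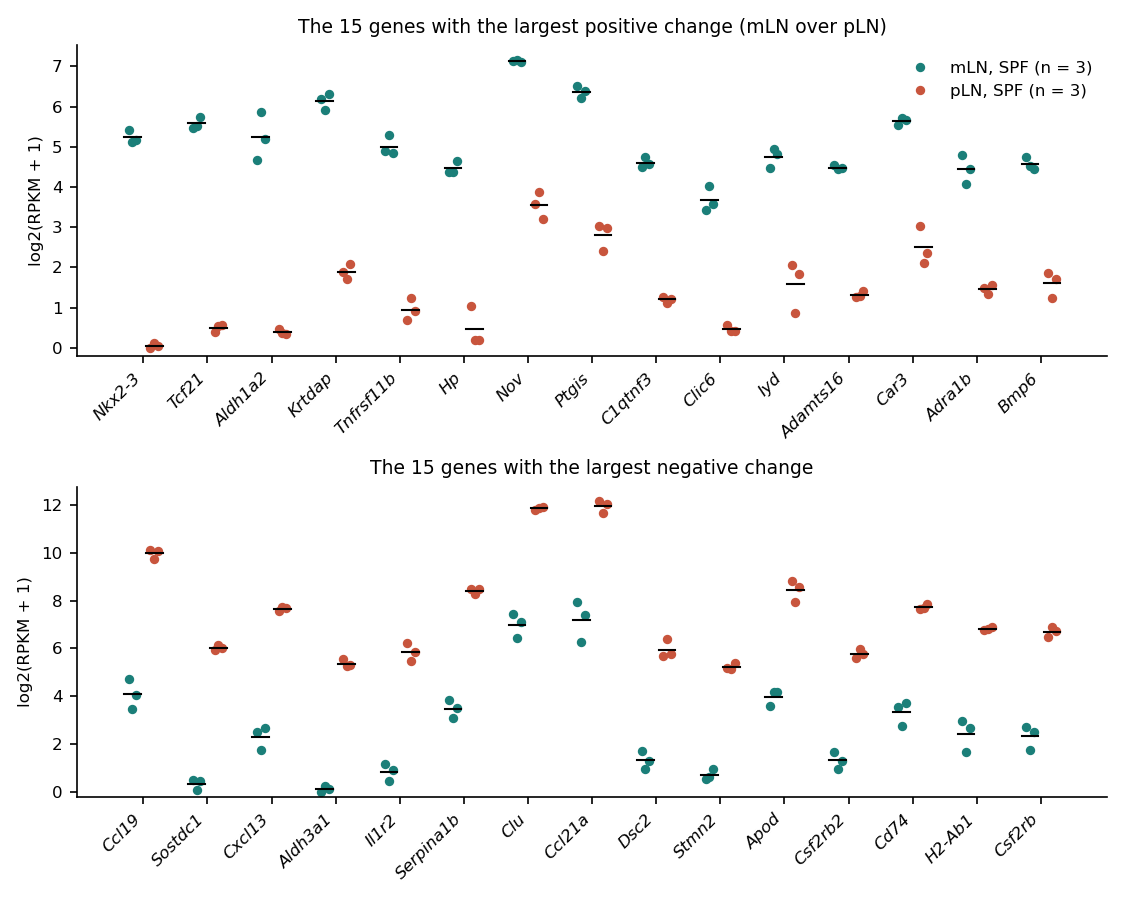
Values of the 15 genes with the largest positive change (top) and the 15 with the largest negative change (bottom), as log2(RPKM + 1). Points are the 3 mLN libraries (left) and the 3 pLN libraries (right) of each gene and bars their means. Only called genes whose libraries of the 2 nodes do not overlap were ranked. The lack of overlap shown here therefore follows from the choice of genes, and 43.5% of all tested genes share it.

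Beyond the transcription factors, the genes highest in mLN relative to pLN included secreted proteins and enzymes. Aldh1a2, an enzyme that oxidises retinal to retinoic acid, was at 24.5, 57 and 35.6 RPKM in mLN, against 0.375, 0.291 and 0.258 RPKM in pLN (log2 change 4.86 ± 0.33, limma adjusted p = 1.32e-08), with mLN replicate 2 the highest library. Tnfrsf11b encodes osteoprotegerin, the decoy receptor of the lymph node organizer cytokine RANKL, and stood at 28.5, 38.1 and 27.8 RPKM in mLN, against 0.602, 1.37 and 0.874 RPKM in pLN (log2 change 4.06 ± 0.18, limma adjusted p = 1.39e-10). The CCN family gene Nov was at 139, 142 and 136 RPKM in mLN, against 11, 13.7 and 8.18 RPKM in pLN (3.58). Between the closest libraries of the nodes Aldh1a2 differed 65.3-fold, Tnfrsf11b 20.4-fold and Nov 9.95-fold. Hp, which encodes the hemoglobin-binding haptoglobin, was at 19.6, 19.7 and 24.2 RPKM in mLN, against 1.05, 0.14 and 0.145 RPKM in pLN, so its pLN libraries were uneven, with replicate 1 above the other two (3.99). Krtdap, a gene best known from differentiating keratinocytes and the only member of the epithelial marker list in the table, was at 71.7, 59.1 and 78.5 RPKM in mLN, against 2.69, 2.27 and 3.27 RPKM in pLN (4.24). Other leading genes were C1qtnf3 (3.4), the chloride channel family gene Clic6 (3.22), Iyd, which encodes iodotyrosine deiodinase (3.16), the metalloprotease gene Adamts16 (3.16), the paternally expressed zinc finger gene Peg3 (2.64) and Ackr4 (2.52), a scavenging receptor for CCL19 and CCL21. Ackr4 was low in both nodes, at 5.57 to 10.3 RPKM in mLN and 0.184 to 0.715 RPKM in pLN.

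The most abundant genes called higher in mLN included surface and secreted proteins. Ly6a, the gene of Sca-1, whose reads may be shared with related Ly6 genes, was at 1832, 1759.7 and 1872 RPKM in mLN, against 1019, 594 and 766 RPKM in pLN (1.23). Penk, which encodes proenkephalin, was at 1094, 948 and 1050.0 RPKM in mLN, against 368, 172 and 273 RPKM in pLN (1.99), and Cd248, endosialin, at 1106, 833 and 986 RPKM in mLN, against 339.8, 180.4 and 248 RPKM in pLN (1.96). For all 3 genes pLN replicate 2 was the lowest library. The receptor tyrosine kinase gene Axl (1.65), the annexin gene Anxa1 (1.46) and the annexin partner genes S100a10 (1.77) and S100a11 (1.21) were also among the 15 most abundant.

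Homeostatic chemokines had the lowest median of the 41 gene lists, with 4 of 5 lower in mLN, 0 higher and a median change of -4.75. Ccl19 (chr4:42754525-42756577, GRCm38), the CCR7 ligand that guides T cells and dendritic cells, was at 25.1, 9.99 and 15.8 RPKM in mLN, against 1111, 863 and 1069 RPKM in pLN (log2 change -5.9 ± 0.27, limma adjusted p = 2.15e-10), the largest negative change of all tested genes. Cxcl13 (chr5:95956951-95961068), the CXCR5 ligand that gathers B cells in follicles, was at 4.66, 2.37 and 5.33 RPKM in mLN, against 189, 209 and 205 RPKM in pLN (log2 change -5.35 ± 0.25, limma adjusted p = 3.70e-10). Ccl21a, the other CCR7 ligand, was at 242, 76.6 and 165 RPKM in mLN, against 4552, 3210.5 and 4184 RPKM in pLN (log2 change -4.75 ± 0.31, limma adjusted p = 9.16e-09). In all 3 genes mLN replicate 2 was the lowest library, and between the closest libraries of the nodes Ccl19 differed 34.3-fold, Cxcl13 35.4-fold and Ccl21a 13.3-fold. Reads of Ccl21a can be shared with near-identical copies, so its value is uncertain. Cxcl12, the CXCR4 ligand, was lower with a smaller change (163, 110.0 and 133 RPKM in mLN, against 715, 834 and 703 RPKM in pLN, -2.48), and Cxcl14 was at 10.8 to 19 RPKM in mLN and 8.92 to 11.1 RPKM in pLN and was not called (0.57).

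Of 9 tested inflammatory chemokines 7 were lower in mLN and 0 higher (median -1.79). The interferon-induced CXCR3 ligand Cxcl9 was at 1.01, 0.992 and 1.08 RPKM in mLN, against 18.7, 22.1 and 21.3 RPKM in pLN (log2 change -3.42 ± 0.18, limma adjusted p = 1.22e-09), and the membrane-bound chemokine Cx3cl1 at 3.7, 2.24 and 2.73 RPKM in mLN, against 27.1, 36.5 and 35.4 RPKM in pLN (-3.13). The monocyte chemokine genes Ccl7 (-2.21) and Ccl2 (-1.77) and the genes Cxcl16 (-2.18), Cxcl10 (-1.79) and Cxcl2 (-1.08) completed the 7, of which Cxcl2 lost its call without pLN SPF replicate 2, at -0.85. The neutrophil attractant Cxcl1 and the eosinophil attractant Ccl11 had no call. Cxcl1 was abundant in both nodes, at 569.8, 500.1 and 610.3 RPKM in mLN, against 634, 696 and 558 RPKM in pLN, and its libraries overlapped. Of 13 tested leukocyte survival and growth cytokines and Notch ligands 8 were lower too, with 0 higher (median -1.05). With the filter of at least 5 RPKM in at least 3 libraries, 5 were lower. Il7, the survival factor of naive T cells, was at 3.19, 3.24 and 3.65 RPKM in mLN, against 40.2, 54.7 and 40.8 RPKM in pLN (log2 change -3.39 ± 0.22, limma adjusted p = 8.59e-09). Tnfsf13b, which encodes the B cell factor BAFF, was at 13.1, 15.9 and 12.4 RPKM in mLN, against 89.7, 86 and 86.1 RPKM in pLN (-2.58). Between the closest libraries Il7 differed 11-fold and Tnfsf13b 5.39-fold. Il6 was lower with a wider spread in pLN (84.8, 67.6 and 82.7 RPKM in mLN, against 205, 276 and 219.5 RPKM in pLN, -1.56), and the Notch ligands Dll4 (-1.94) and Dll1 (-1.24) and the stem cell factor gene Kitl (-1.86) were lower. Both Notch ligands were low, with means of 0.355 RPKM (Dll4) and 0.159 RPKM (Dll1) in mLN, against 4.22 and 1.76 RPKM in pLN. Csf1, the macrophage growth factor, was at 152 to 157 RPKM in mLN and 110 to 135 RPKM in pLN and stayed under 2-fold (0.32).

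The lymphotoxin pathway and lymphoid organizer list had 11 of 18 tested members lower and 1, Tnfrsf11b, higher (median -1.40). Its signalling receptors Ltbr and Tnfrsf1a had no call. Ltbr, the lymphotoxin beta receptor, was at 36.4, 28.5 and 35 RPKM in mLN, against 35.1, 29.3 and 33.6 RPKM in pLN, which overlap (0.02), and Tnfrsf1a, the TNF receptor gene, had a change of -0.05. Genes of the noncanonical NF-kB arm were lower, namely Nfkb2 (13.3, 8.25 and 9.7 RPKM in mLN, against 29, 31.9 and 32.5 RPKM in pLN, -1.52), Relb (-1.2) and Map3k14, which encodes the kinase NIK (-1.45). Adhesion molecules of organizer cells, Vcam1 (50.7, 50.2 and 43 RPKM in mLN, against 229, 308 and 246 RPKM in pLN, -2.41), Madcam1 (-2.56) and Icam1 (-1.38), were lower in all mLN libraries. Mfge8, a phosphatidylserine-binding protein of follicular stroma, was at 377, 246 and 326 RPKM in mLN, against 2719.9, 2715 and 2855 RPKM in pLN (log2 change -3.14 ± 0.17, limma adjusted p = 1.54e-09), and Enpp2, the gene of the lysophosphatidic acid-producing enzyme autotaxin, at 72.9, 60.7 and 59.4 RPKM in mLN, against 429.6, 863 and 597 RPKM in pLN (-3.22). In the list of NF-kB subunits and feedback inhibitors 6 of 15 tested members were lower and 0 higher (median -0.66). All 6 are genes that NF-kB itself can induce, most of them its feedback inhibitors, namely Nfkbie (7.35, 5.7 and 6.21 RPKM in mLN, against 41.8, 54.6 and 49.6 RPKM in pLN, -2.74), Birc3 (-2.02), Tnfaip3 (-1.72), Bcl3 (-1.19), Tnip1 (-1.18) and Nfkbia, at 199, 172 and 209 RPKM in mLN, against 405, 386 and 391 RPKM in pLN (-1.03). The change of Nfkbia was near the threshold and was -0.94 without mLN SPF replicate 2. The subunit genes Rela (-0.13) and Nfkb1 (-0.01) were not called, and their libraries overlapped.

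Promoter windows of RefSeq (GRCm38.p6, 250 bases before to 50 after each start) were matched by symbol for 7575 of the 9758 tested genes. The NF-kB consensus, read on both strands, stood in the window of 12.8% of 444 genes called lower in mLN, of 6.69% of 284 genes called higher and of 6.4% of all 7575. Of the 6 lower NF-kB feedback genes 5 held it, Bcl3, Nfkbia, Nfkbie, Tnfaip3 and Tnip1, and so did 5 of 9 lower MHC class I presentation genes, B2m, H2-D1, H2-K1, H2-Q4 and H2-Q7. The first list consists largely of genes known to be tied to NF-kB, so its share was partly set by the choice of list. The H2 genes are similar to each other and do not count as independent matches. Members of these lists that were not called lower were not counted, so the shares cannot be tied to the call. Of the other lower lists with windows it stood in 2 of 4 inflammatory chemokine genes (Cxcl10 and Cxcl2), 2 of 7 lymphotoxin pathway and organizer genes (Madcam1 and Nfkb2), 1 of 4 class II genes (H2-Aa), 1 of 6 perivascular markers (Des) and 0 of 3 interferon response genes. TATAAA, by comparison, stood in 17.8% of the lower, 13% of the higher and 8.45% of all windows. The interferon-stimulated response element stood in 5.63% of the lower, 3.17% of the higher and 3.66% of all windows. It was in 1 of 3 lower interferon response genes with a window (Tgtp2). The CArG box, read by the factor SRF, stood in 1.8% of the lower, 3.17% of the higher and 1.54% of all windows. It was in 0 of 6 lower perivascular markers with a window. A match of letters is a description of the window and no evidence of binding. The stretches before the start of Nfkbia (chr12:55492648-55492736, minus strand), Nfkb2 (chr19:46304638-46304736, plus strand) and B2m (chr2:122147501-122147630, plus strand) are given 5′ to 3′ on the gene's strand, because these 3 genes were lower in mLN, with the consensus in capitals, which begins 29, 39 and 126 bases before the start in the order given. In Nfkbia and B2m the match lies on the opposite strand, so the capitals there show its reverse complement. Capitals mark 1 match per stretch, and Nfkb2 holds another on the gene's strand in lower case near its 3′ end.
Nfkbia: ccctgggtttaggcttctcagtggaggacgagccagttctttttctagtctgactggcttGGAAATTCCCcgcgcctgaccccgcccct
Nfkb2: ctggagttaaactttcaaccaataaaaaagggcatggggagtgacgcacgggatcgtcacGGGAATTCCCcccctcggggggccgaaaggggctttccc
B2m: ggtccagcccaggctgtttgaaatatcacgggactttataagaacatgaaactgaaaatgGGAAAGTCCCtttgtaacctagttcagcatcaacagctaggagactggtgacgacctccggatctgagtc

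MHC class II presentation, which node SCs use at low level to show antigen to CD4 T cells, was lower in mLN for 6 of 9 tested genes and higher for 0 (median -2.70). Cd74, the invariant chain gene, was at 10.8, 5.77 and 12 RPKM in mLN, against 197, 206 and 232 RPKM in pLN (log2 change -4.39 ± 0.22, limma adjusted p = 8.01e-10). H2-Ab1, a class II beta chain gene, was at 6.85, 2.21 and 5.37 RPKM in mLN, against 107, 111 and 118 RPKM in pLN (log2 change -4.38 ± 0.26, limma adjusted p = 3.65e-09), and its partner H2-Aa at 2.5, 1.64 and 2.98 RPKM in mLN, against 23.2, 23.6 and 30.7 RPKM in pLN (-3.0). In each of these genes mLN replicate 2 was the lowest library, and the closest libraries of the nodes differed 16.4-fold for Cd74, 15.6-fold for H2-Ab1 and 7.76-fold for H2-Aa. H2-Eb1 (-2.69), the peptide loading gene H2-DMa (-1.77) and Ctss, the protease that trims the invariant chain (-3.93), were lower. The promoter factors Rfx5 (-0.34), Rfxank (-0.13) and Rfxap (0.33) had no call. Class II promoters carry a Y box read by the factor NF-Y. Its core ATTGG, on either strand, was in the windows of H2-Aa, H2-DMa and H2-Eb1, 3 of the 4 lower class II genes with a window, but also in 41.4% of the lower, 39.8% of the higher and 42.3% of all windows. It is shown in capitals for H2-Aa (chr17:34287824-34287931, minus strand) and H2-Eb1 (chr17:34305748-34305866, plus strand), where it begins 48 and 59 bases before the start, to show where it lies in these 2 lower genes. H2-Eb1 holds another match on the opposite strand, left in lower case.
H2-Aa: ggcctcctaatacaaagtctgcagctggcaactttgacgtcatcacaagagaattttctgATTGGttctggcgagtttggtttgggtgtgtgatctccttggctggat
H2-Eb1: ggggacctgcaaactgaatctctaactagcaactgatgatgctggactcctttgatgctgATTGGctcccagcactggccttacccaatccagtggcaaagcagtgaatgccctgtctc

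MHC class I presentation was lower for 9 of 21 tested genes and higher for 0 (median -0.84). B2m, the light chain of all class I molecules, was at 1349.7, 944 and 1308 RPKM in mLN, against 3645, 3346 and 3350.5 RPKM in pLN (-1.54), and was under 2-fold after quantile normalization, at -0.99. H2-K1 (215, 185 and 196 RPKM in mLN, against 677, 755 and 706 RPKM in pLN, -1.84) and H2-D1 (-1.58) encode the classical heavy chains, and Tap1 the peptide transporter (-1.38). Psmb8 (-1.17) and Psmb9 (-1.08), subunits of the immunoproteasome, were lower, the last not called without pLN SPF replicate 1, at -0.97, while the chaperone gene Pdia3 (0.14) had no call. Reads of H2 genes can be shared between near-identical copies, which makes their single values uncertain. Of 39 tested interferon response genes 7 were lower and 0 higher, with a median of -0.12, beside 0.095 for all tested genes. Among the lower ones were Irf8 (4.72, 3.29 and 3.75 RPKM in mLN, against 44.4, 70.7 and 55 RPKM in pLN, -3.54), Usp18 (-1.92) and the interferon-gamma-inducible GTPase genes Iigp1 (-1.92), Tgtp2 (-1.9), Ifi47 (-1.81) and Gbp4 (-1.0). Gbp4 was not called when mLN SPF replicate 1 was left out (-0.80) or when pLN SPF replicate 2 was (-0.85). The interferon-induced genes Isg15 (0.21), Ifit1 (-0.12), Irf7 (0.77) and Oas1a (0.84), named after their values were seen, had no call.

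Elastic fibre, collagen and laminin genes were more often higher than lower in mLN. Elastic fibre and microfibril genes had 10 of 23 tested members higher and 1 lower (median 0.80), beside 3.98% of all tested genes higher. Fbn1, the main microfibril protein, was at 531, 621 and 595 RPKM in mLN, against 109, 120.3 and 104 RPKM in pLN (log2 change 2.38 ± 0.16, limma adjusted p = 1.14e-08). The elastin gene Eln was at 378, 363 and 367 RPKM in mLN, against 119, 95 and 109 RPKM in pLN (1.78), and Fn1, fibronectin, at 1398, 1599.9 and 1483 RPKM in mLN, against 383, 403 and 367 RPKM in pLN (log2 change 1.95 ± 0.11, limma adjusted p = 2.75e-09). The closest libraries of the nodes differed 4.41-fold for Fbn1, 3.05-fold for Eln and 3.47-fold for Fn1. Efemp1 (2.31), Mfap5 (2.3), Fbln2 (2.04), Emilin2 (1.94), Fbln5 (1.86) and the crosslinking enzyme genes Loxl2 (1.74) and Loxl1 (1.49) were the other higher members. Ltbp2, a latent TGF-beta binding protein relative, was the lower one, at 1.05, 0.654 and 0.761 RPKM in mLN, against 21.4, 29.7 and 26.5 RPKM in pLN (log2 change -3.88 ± 0.16, limma adjusted p = 8.57e-11).

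Collagens followed with 8 of 24 higher and 2 lower (median 0.75). The basement membrane collagen Col4a5 was at 15.6, 30.7 and 18.2 RPKM in mLN, against 1.69, 3.81 and 2.08 RPKM in pLN (2.66), where replicate 2 was the highest library in both nodes. Col14a1, which sits on collagen fibrils, was at 248, 247 and 251 RPKM in mLN, against 83.2, 101 and 96.2 RPKM in pLN (log2 change 1.41 ± 0.11, limma adjusted p = 5.28e-08), and Col5a3 at 159.8, 186 and 164 RPKM in mLN, against 63, 57.4 and 65.8 RPKM in pLN (1.44). The main fibrillar chains stood under 2-fold and differed in sign, with Col1a1 at 1312, 1118 and 1309 RPKM in mLN, against 1962, 1827 and 2044 RPKM in pLN (-0.64) and Col3a1 at 0.34. The lower collagens were Col6a5 (-2.14) and Col23a1 (-2.09). Laminins and basement membrane genes had 6 of 17 higher and 2 lower (median 0.19). The higher laminin chains, Lamb1 (348, 361 and 352 RPKM in mLN, against 82.5, 77 and 95.4 RPKM in pLN, 2.05), Lamc1 (1.8), Lama4 (1.72) and Lama2 (1.59), are those of mesenchymal laminins, and the linker gene Nid1 was at 1369, 1318 and 1311 RPKM in mLN, against 363, 362 and 349.7 RPKM in pLN (log2 change 1.89 ± 0.15, limma adjusted p = 9.51e-08). The lower chains were Lamb3 (0.569, 0.327 and 0.475 RPKM in mLN, against 24.8, 28.2 and 30.4 RPKM in pLN, -4.3), an epithelial laminin chain, and Lama5 (-1.93). Without pLN SPF replicate 1, 4 laminin and basement membrane genes were lower. The closest libraries differed 3.61-fold for Nid1, and Lamb3 was below 1 RPKM in every mLN library.

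Among small leucine-rich proteoglycans Fmod, fibromodulin, was at 21.1, 16.2 and 17.7 RPKM in mLN, against 216, 238 and 244 RPKM in pLN (-3.6) and Bgn, biglycan, at 268, 235 and 258 RPKM in mLN, against 586, 547 and 592 RPKM in pLN (-1.18), while Aspn, asporin, was higher (1.26), so that 1 of 9 tested members was higher and 3 lower. When replicate 1 was left out of mLN 3 were higher, and when it was left out of pLN 2 were. Matricellular proteins split into 6 higher and 8 lower of 19 (median 0.00). Postn, periostin, was at 411, 503 and 433 RPKM in mLN, against 102, 109 and 92.4 RPKM in pLN (2.14), and Tgfbi at 33.7, 21.9 and 28.6 RPKM in mLN, against 499, 476 and 492 RPKM in pLN (log2 change -4.1 ± 0.20, limma adjusted p = 4.74e-10). Thbs4 (-3.96) and tenascin C, Tnc (-2.89), were lower with Tgfbi, and Spon2 (2.02), Tnxb (1.71) and Nov were higher with Postn. Of 32 matrix proteases and inhibitors 6 were higher and 3 lower (median 0.29). Mmp3, stromelysin, was lower at 36.3, 47.9 and 40.2 RPKM in mLN, against 377, 363 and 369.6 RPKM in pLN (-3.14), and the serine protease gene Htra3 (1.52) and the plasminogen activator gene Plat (1.33) were higher.

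**Figure D4:**
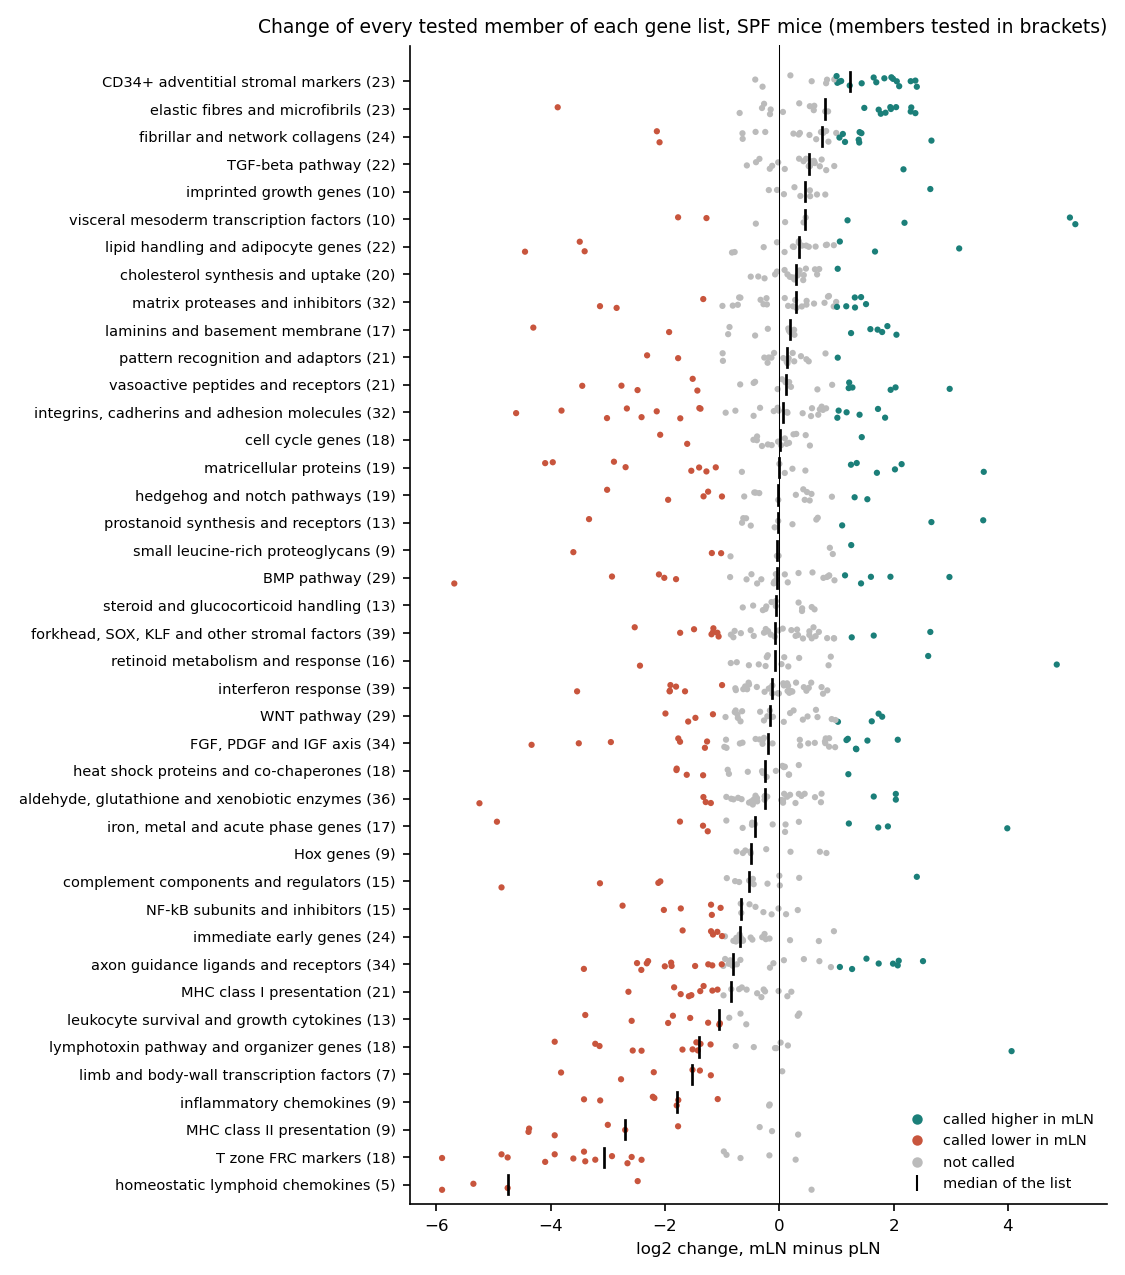
Log2 change of mLN minus pLN for every tested member of 41 gene lists in SPF mice, ordered by the median of the list (black bar), with the number tested in brackets and colour for the call. The homeostatic chemokines have a median of -4.75 at the bottom and the CD34+ adventitial markers one of 1.23 at the top.

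Growth factor pathways held calls in both directions. In the BMP pathway 5 of 29 tested members were higher and 5 lower (median -0.05). Split by role after the values were seen, ligands had 2 higher and 2 lower of 6, antagonists and modulators 3 and 3 of 11, and receptors, SMADs and the Id target genes 0 and 0 of 11 (6 at an unadjusted p below 0.05, and 0 called by voom). Bmp6 was at 26, 22.2 and 21 RPKM in mLN, against 2.62, 1.36 and 2.29 RPKM in pLN (2.98) and Bmp7 at 9.57, 12 and 10.8 RPKM in mLN, against 2.42, 1.46 and 2.38 RPKM in pLN (1.95). Both ligands were higher in mLN, where Bmp4 (4.9, 4.54 and 5.81 RPKM in mLN, against 22.9, 18 and 19.9 RPKM in pLN, -1.81) and Bmp3 (-2.01) were lower. Sostdc1, whose secreted product blocks both BMP and WNT signals, was at 0.404, 0.0588 and 0.386 RPKM in mLN, against 59.8, 70.1 and 63.9 RPKM in pLN (log2 change -5.69 ± 0.16, limma adjusted p = 2.17e-12), and the BMP antagonist Grem1 at 2.24, 1.24 and 1.85 RPKM in mLN, against 18.4, 21.7 and 19.6 RPKM in pLN (-2.93). Neither node overlapped the other in Sostdc1, which stayed under 1 RPKM in mLN. Chrdl1 (-2.1) was lower too, and Fstl1 (1.43), Bmper (1.6) and Nbl1 (1.15, 0.99 without pLN SPF replicate 2) were higher. The target genes Id1 and Id2 had changes of 0.87 and -0.86. In the WNT pathway 4 of 29 were higher and 4 lower (median -0.16), with the agonist gene Rspo3 (1.62), the receptor gene Fzd4 (1.8) and the decoy Sfrp4 (1.74) among the higher and Wnt6 (-1.99) and the feedback inhibitor gene Nkd1 (-1.59) among the lower. TGF-beta pathway genes had a single call in 22, Lrrc32, whose product GARP anchors latent TGF-beta (52.8, 45.7 and 50.3 RPKM in mLN, against 12, 8.27 and 10.7 RPKM in pLN, 2.17). It was 1 of 2 called when mLN SPF replicate 2 or pLN SPF replicate 3 was left out.

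The FGF, PDGF and IGF axis had 6 higher and 7 lower of 34 tested (median -0.19). Its largest differences were in IGF binding proteins. Igfbp3 was at 94.9, 54.3 and 70.5 RPKM in mLN, against 761, 937 and 779 RPKM in pLN (-3.51) and Igfbp2 at 2.79, 0.945 and 2.91 RPKM in mLN, against 75.1, 47.7 and 62.6 RPKM in pLN (-4.33), both lower in mLN, while Igfbp6 was at 1165, 982 and 1148 RPKM in mLN, against 595, 306 and 441 RPKM in pLN (1.34). The closest libraries of the nodes differed 8.02-fold for Igfbp3 and 16.4-fold for Igfbp2 but 1.65-fold for Igfbp6. Igf1 itself was at 62.8 to 67.7 RPKM in mLN and 47.6 to 53.2 RPKM in pLN (0.36, not called). Fgf18 was higher (2.07), and the receptor Fgfr4 (-2.95), Pdgfa (-1.77) and the angiopoietin gene Angpt1 (-1.74) were lower.

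Guidance ligands and receptors had medians of opposite sign. Of 34 tested axon guidance genes 8 were higher and 12 lower (median -0.81). Split into ligands and receptors after the values were seen, ligands had 7 higher and 2 lower of 15 (median 0.90), and receptors 1 higher and 9 lower of 18 (median -0.99). The split left out 1 tested gene of neither role, which was lower (-3.42). The secreted ligand Slit2 was at 7.38, 12 and 7.68 RPKM in mLN, against 0.426, 0.919 and 0.851 RPKM in pLN (log2 change 2.52 ± 0.19, limma adjusted p = 3.81e-08) and its relative Slit3 at 148, 169.7 and 159.6 RPKM in mLN, against 56.3, 51.6 and 55.6 RPKM in pLN (1.53). Their receptor Robo2 was at 0.872, 0.798 and 0.717 RPKM in mLN, against 6.01, 10.5 and 7.43 RPKM in pLN (-2.29). Slit2 and Slit3 were higher and Robo2 lower in every mLN library, a lack of overlap that 1010 of the 1013 called genes share. Sema3e (2.07), Sema3d (2.09), Sema3c (1.99), Ntn4 (1.74) and Ntn1 (1.27) were the further higher ligands, and the receptors Unc5c (-2.32), Ngfr (-2.0), Ntrk2 (-1.89), Plxnb1 (-1.88) and Gfra2 (-2.49) were lower. Cell adhesion genes had 6 higher and 9 lower of 32 tested (median 0.06). The desmosomal cadherins Dsc2, at 2.32, 0.956 and 1.5 RPKM in mLN, against 50.3, 82.7 and 53.2 RPKM in pLN (log2 change -4.6 ± 0.28, limma adjusted p = 3.99e-09), and Dsg2 (-3.81) and the cadherins Cdh2 (-2.67) and Cdh11 (-2.14) were lower. Dsc3, a desmosomal cadherin outside that list, was at 10.7, 5.32 and 7.74 RPKM in mLN, against 102, 222 and 153 RPKM in pLN (-4.14). For Dsc2, Dsg2, Cdh2 and Dsc3 replicate 2 was the highest pLN library, and the lowest pLN library still exceeded every mLN library. Integrin alpha 5, Itga5 (1.85), the fibronectin receptor chain, and beta 3, Itgb3 (1.73), were higher, and the collagen receptor chain Itga1 (-3.01) was lower.

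Enzymes of lipid mediators and small molecules held a few large differences in otherwise even lists. Among 13 prostanoid genes 3 were higher and 1 lower (median -0.02). Ptgis, prostacyclin synthase, was at 90.7, 73.9 and 82.2 RPKM in mLN, against 7.21, 4.28 and 6.89 RPKM in pLN (log2 change 3.57 ± 0.26, limma adjusted p = 3.31e-08), and Ptgs1, cyclooxygenase 1, at 58.5, 59.96 and 60.6 RPKM in mLN, against 9.18, 8.0 and 8.64 RPKM in pLN (log2 change 2.66 ± 0.21, limma adjusted p = 7.48e-08). Ptges, which makes prostaglandin E2, was higher (1.1), and the phospholipase gene Pla2g5 (-3.33) and the prostaglandin transporter gene Slco2a1, outside the list (3.36, 2.22 and 2.58 RPKM in mLN, against 57.7, 67 and 68.1 RPKM in pLN, -4.14), were lower. Among 16 retinoid genes Aldh1a2 and Aldh1a3, at 63.9, 76.1 and 64.7 RPKM in mLN, against 11.4, 9.91 and 9.76 RPKM in pLN (2.61), both of which make retinoic acid, were higher, and Cyp26b1, which degrades it, was lower, at 1.79, 0.953 and 1.9 RPKM in mLN, against 10.2, 14 and 14 RPKM in pLN (-2.44). Without pLN SPF replicate 1, 4 retinoid genes were called higher. The other tested retinoid genes had no call, and the median of the list was -0.08. Thus, among the called retinoid genes alone, the makers were higher and the degrader was lower in all 3 mLN libraries. Aldehyde, glutathione and xenobiotic enzymes had 3 higher and 4 lower of 36 tested. Aldh3a1 was at 0, 0.179 and 0.0977 RPKM in mLN, against 45.7, 37.6 and 38.2 RPKM in pLN (log2 change -5.25 ± 0.13, limma adjusted p = 4.23e-13), nearly absent from mLN, and the oxygenase gene Fmo2 was higher (2.04). Apoe was the most abundant gene called lower, at 842, 459 and 645 RPKM in mLN, against 6819.5, 7178 and 7262 RPKM in pLN (log2 change -3.49 ± 0.28, limma adjusted p = 7.27e-08), and Apod (-4.45) and Apoc1 (-3.4) went with it. In iron and acute phase genes 4 were higher and 4 lower of 17 tested, among them Hp and the iron exporter gene Slc40a1 (1.9) higher and Serpina1b (13.3, 7.49 and 10.4 RPKM in mLN, against 357, 308 and 359 RPKM in pLN, -4.94) and Serpina3n (-1.74) lower. Serpina1b and Serpina1e are near-identical genes, and their values are uncertain. Complement genes had 1 higher and 4 lower of 15 tested. Clu, clusterin, was at 175, 84.7 and 136 RPKM in mLN, against 3494, 3773 and 3814 RPKM in pLN (log2 change -4.86 ± 0.23, limma adjusted p = 3.70e-10), Vtn, vitronectin, at 61, 47.8 and 56.7 RPKM in mLN, against 483, 483 and 506 RPKM in pLN (-3.14) and C4b at 217, 227 and 207 RPKM in mLN, against 743, 1094 and 958 RPKM in pLN (-2.08). Cd55, which protects cells from complement, was the higher one (153, 169 and 142 RPKM in mLN, against 30.6, 30.02 and 24.5 RPKM in pLN, 2.41).

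Vasoactive peptides, their receptors and effectors had 6 higher and 5 lower of 21 tested (median 0.11). The alpha-adrenergic receptor genes parted, with Adra1b at 26.9, 15.8 and 20.8 RPKM in mLN, against 1.78, 1.52 and 1.95 RPKM in pLN (2.98) and Adra2a at 0.266, 0.217 and 0.111 RPKM in mLN, against 13.3, 12.3 and 10.7 RPKM in pLN (log2 change -3.45 ± 0.14, limma adjusted p = 8.57e-11). The sphingosine 1-phosphate receptor gene S1pr3 was at 17.5, 18.1 and 17.7 RPKM in mLN, against 102, 150.4 and 130.4 RPKM in pLN (-2.76), and Spns2, the transporter that exports sphingosine 1-phosphate, at 3.81, 2.6 and 2.61 RPKM in mLN, against 68.5, 67.6 and 67.6 RPKM in pLN (-4.12). Both were lower in mLN, and the natriuretic peptide receptor gene Npr1 (1.95) and the adenosine receptor gene Adora2b (2.03) were higher. Cytokine receptors outside the lists were among the largest negative changes. Il1r2, the decoy receptor of interleukin 1, was at 1.29, 0.385 and 0.884 RPKM in mLN, against 75, 43.2 and 57.5 RPKM in pLN (log2 change -5.0 ± 0.29, limma adjusted p = 2.74e-09), and Csf2rb, the shared receptor chain of GM-CSF and interleukin 3, at 5.58, 2.4 and 4.73 RPKM in mLN, against 88.7, 117 and 106 RPKM in pLN (-4.37). Its neighbour Csf2rb2 had a change of -4.45, and reads of these 2 similar genes may be shared.

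Of further lists, the hedgehog and Notch pathways had 2 higher and 5 lower of 19 tested, cell cycle genes 1 and 2 of 18 and cholesterol synthesis 1 and 0 of 20. In steroid handling limma called 0 of 13 (7 at an unadjusted p below 0.05, and 0 by voom). The 1 higher cholesterol gene, Hsd17b7 (1.02), was not called when mLN SPF replicate 3 (0.98) or pLN SPF replicate 1 (0.90) was left out. The medians of these 4 lists lay between -0.06 and 0.29. Markers of CD34+ adventitial SCs were higher in mLN for 16 of 23 tested members and lower for 0 (median 1.23), and markers of T zone FRCs were lower for 13 of 18 and higher for 0 (median -3.07). Both lists were chosen with earlier results of these data known, so their direction is not independent evidence. The chemokine receptor gene Ackr3, in the first list, was at 289.9, 259 and 251 RPKM in mLN, against 74.4, 53 and 58.5 RPKM in pLN (log2 change 2.1 ± 0.22, limma adjusted p = 1.34e-06). Cd34 itself was at 567, 699 and 592 RPKM in mLN, against 347, 267 and 305 RPKM in pLN (1.02), near the threshold, and was not called when replicate 2 of mLN (0.93), of pLN (0.92) or of both (0.83) was left out. It was also not called with median-of-ratios scaling (0.92), quantile normalization (0.98) or voom (0.97). Pi16, at 622, 265 and 496 RPKM in mLN, against 267, 159.8 and 257 RPKM in pLN, had libraries that overlapped and no call (0.96). In the second list, beyond genes given above, Bst1, a surface ectoenzyme, was at 1.91, 0.973 and 1.56 RPKM in mLN, against 33.4, 39.2 and 36.6 RPKM in pLN (-3.93), and Ch25h, which makes 25-hydroxycholesterol, at 0.974, 0.61 and 0.563 RPKM in mLN, against 8.03, 11.4 and 10.1 RPKM in pLN (-2.66). Pdgfrb, at 65.6, 57.9 and 58.7 RPKM in mLN, against 113, 121 and 114 RPKM in pLN (-0.92), and the alarmin gene Il33 (-0.68) did not reach 2-fold.

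Contractile and perivascular genes were lower with the FRC markers. Acta2, smooth muscle actin, was at 7.5, 4.22 and 5.36 RPKM in mLN, against 95.7, 103 and 101 RPKM in pLN (log2 change -3.94 ± 0.30, limma adjusted p = 4.86e-08). Rgs5, a pericyte regulator of G protein signalling, was at 3.06, 0.628 and 2.12 RPKM in mLN, against 42.3, 58.8 and 48.4 RPKM in pLN (log2 change -4.2 ± 0.31, limma adjusted p = 3.31e-08), and Des, desmin, at 27.9, 12.2 and 20.2 RPKM in mLN, against 191, 167 and 187 RPKM in pLN (-3.18). In all 3 genes mLN replicate 2 had the lowest value. Tagln (-4.09), Kcnj8 (-3.81), Notch3 (-3.01), Abcc9 (-2.5) and Myh11 (-2.42) were the other lower members, and Cspg4 (-0.45) and Mcam (-0.45) had no call. Immediate early and heat shock genes, which cells can induce during tissue digestion, held a few calls. Of 24 immediate early genes 5 were lower and 0 higher (median -0.68), or 3 lower without pLN SPF replicate 2 and 1 higher without mLN SPF replicate 2 or pLN SPF replicate 1, and of 18 heat shock genes 4 were lower and 1 higher (median -0.25). Hspa1b was at 64.7, 49.9 and 53.4 RPKM in mLN, against 91.5, 387 and 211 RPKM in pLN (-1.79), so that pLN replicate 2 was the highest library by far, and Dnajb1 showed the same order in pLN (123, 157 and 134 RPKM in mLN, against 229, 527 and 347 RPKM in pLN, -1.33). Hspa1a and Hspa1b are near-identical, and their split is uncertain. The part of these responses in other results was not tested.

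In GF mice the same contrast of nodes was available from separate libraries, and a location by housing interaction tested whether the SPF difference itself differed from the GF one. It was called for 21 genes, 0.215% of all tested, 9 of which were positive and 12 negative. The replicate numbers paired libraries weakly, and with the replicate number as a block within each housing the interaction was called for 41 genes. Leaving out replicate 3 of SPF mLN or of SPF pLN gave 12 genes each. The housing groups come from different colonies, and the methods list the CD90.1 allele for the SPF line and not for the GF mice. Housing, colony and this allele therefore cannot be told apart. In SPF mice Trf, transferrin, was higher in mLN than in pLN, at 12, 11.1 and 12.6 RPKM in mLN, against 3.41, 2.67 and 2.62 RPKM in pLN (1.73). Its GF change was -0.10, with GF means of 18.3 RPKM in mLN and 19.7 RPKM in pLN, both above the SPF values. C7, a terminal complement component, was at 138, 184 and 154 RPKM in mLN, against 122, 123 and 125 RPKM in pLN in SPF mice (0.35) with a GF change of 2.40, and Has1, a hyaluronan synthase, at 154, 168 and 173 RPKM in mLN, against 108, 114 and 111 RPKM in pLN (0.57) with a GF change of 2.27. For both genes the GF means were higher in mLN (C7 123 and Has1 215 RPKM) than in pLN (C7 23.5 and Has1 47 RPKM). The leading location genes had changes in GF mice of 4.49 for Nkx2-3, 5.0 for Tcf21, -5.19 for Ccl19 and -4.94 for Cxcl13, and none of the 4 was called in the interaction.

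**Figure D5:**
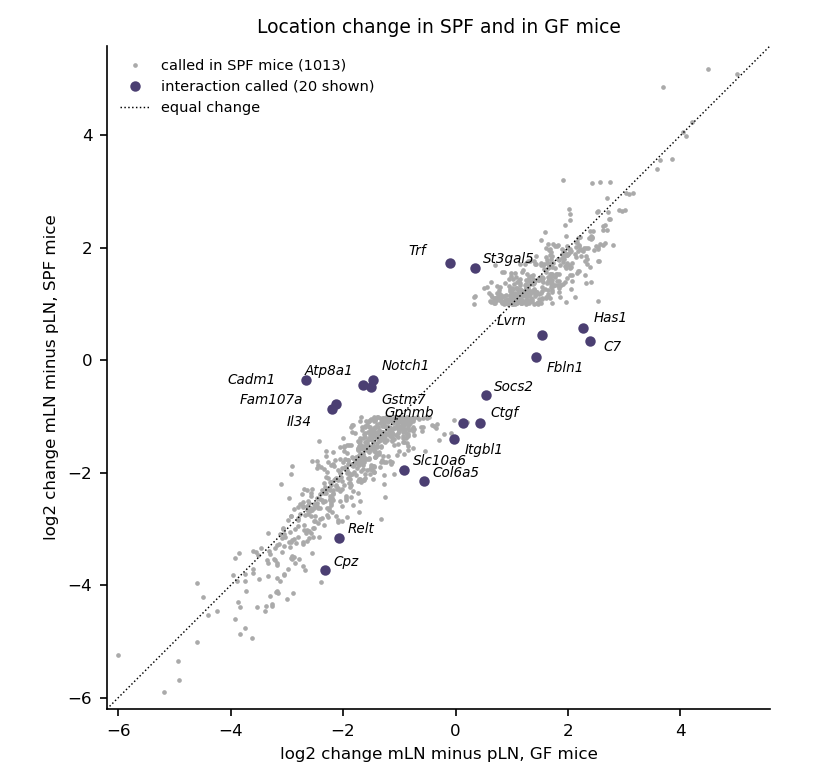
Log2 change of mLN minus pLN in GF mice (x axis) and in SPF mice (y axis). Grey points are the 1013 genes called in SPF mice, named points 20 of the 21 genes called in the interaction, and the dotted line marks equal change. C7 lies farthest to the right of that line, at 0.35 in SPF and 2.40 in GF mice, and Cadm1 farthest to its left, at -0.34 and -2.65.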

How the data were processed

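Single-end 50 bp reads of 12 libraries, made from RNA of sorted SCs with a full-length cDNA kit that does not mark strand, were aligned by the authors with TopHat2 1.2.0 to GRCm38, counted per gene with HTSeq 0.12.4 and deposited as RPKM, without pooling of replicates. Antisense or overlapping genes therefore cannot be told apart. The deposited table also holds log2 fold changes and adjusted p-values of the authors' own DESeq2 comparisons, which were not used. The rule by which genes entered this table is not stated in the sources used here. The labels' source field of pLN samples also names mesenteric nodes, and the titles were followed.

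RPKM were whole multiples of 1 read for 99.912% of genes (relative tolerance 1e-09). This gave the depth of each library and the reads for a count-based alternative (voom). Left out were 489 genes under the filter and 6 rows that were not whole multiples, and 18 symbols that had been turned into dates are unnamed. A linear model of log2(RPKM + 1) with 4 group means over 12 libraries was fitted with limma 3.58.1 (R 4.3.3), with Benjamini-Hochberg adjustment over the 9758 tested genes. A call needed adjusted p below 0.05 and at least 2-fold. Fold changes on this scale understate the change of low genes. The fit was tested on simulated data.

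Named genes were the 30 largest changes in each direction without overlap, up to 6 called members with the largest change and the defining members of each list, the 15 most abundant calls in each direction, 10 interaction genes in each direction and the sort markers. Other list members that are named were chosen after their values were seen. Members and lists were chosen with earlier results of these data known. Same-numbered mLN and pLN libraries deviated together (r = 0.262, 0.456 and 0.182 across genes), so the replicate number was taken to pair them, although mLN 1 with pLN 3 (0.304) and mLN 3 with pLN 1 (0.21) also correlated and only replicate 2 correlated with its own number alone, and the fit with the block changed no SPF count. Alternatives were other pseudocounts (0.1 and 0.5), filters (none, RPKM of at least 5), scalings (median of ratios, quantile), samples, blocks and tests. Promoter windows came from RefSeq and gene positions from GENCODE. A few genes that these rules name are not reported here, though counts include them.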

Additional observations from a re-analysis of the deposited data

Results flagged for a closer look

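A location by housing interaction (limma, adjusted p below 0.05 and at least 2-fold) was called for 21 genes. Their mLN minus pLN change on the log2(RPKM + 1) scale therefore differed between SPF and GF mice by a test of that difference. For 20 of them, in brackets are the log2 change in SPF mice, that in GF mice and the interaction, the SPF change minus the GF change. It was positive for Cadm1 (-0.34, -2.65 and 2.31), Trf (1.73, -0.1 and 1.83), Fam107a (-0.78, -2.13 and 1.35), Il34 (-0.87, -2.19 and 1.32) and St3gal5 (1.65, 0.34 and 1.3). It was also positive for Atp8a1 (-0.44, -1.64 and 1.21), Notch1 (-0.35, -1.47 and 1.12) and Gstm7 (-0.47, -1.5 and 1.03). It was negative for Slc10a6 (-1.94, -0.91 and -1.03), Relt (-3.15, -2.07 and -1.08), Lvrn (0.45, 1.54 and -1.09), Socs2 (-0.61, 0.54 and -1.15), Gpnmb (-1.12, 0.14 and -1.26) and Itgbl1 (-1.4, -0.03 and -1.36). The other negative genes were Fbln1 (0.06, 1.43 and -1.37), Cpz (-3.73, -2.32 and -1.41), Ctgf (-1.11, 0.43 and -1.54), Col6a5 (-2.14, -0.56 and -1.58), Has1 (0.57, 2.27 and -1.7) and C7 (0.35, 2.4 and -2.06). Transferrin, Trf, was higher in mLN of SPF mice and not of GF mice, where its means were 18.3 RPKM in mLN and 19.7 RPKM in pLN. Cadm1, which encodes a cell adhesion molecule, and Il34, a ligand of the CSF1 receptor, had larger negative changes in GF mice than in SPF mice. In SPF mice Fam107a was at 0, 0 and 0.0507 RPKM in mLN, against 0.934, 0.733 and 0.583 RPKM in pLN. Its GF means were 0.16 RPKM in mLN and 4.07 RPKM in pLN. Cadm1 was at 0.142 to 0.297 RPKM in mLN and 0.299 to 0.732 RPKM in pLN of SPF mice. The 1 added to RPKM understates changes at such levels, so the interactions of Fam107a and Cadm1 depend on that scale. Ctgf was not called in the SPF comparison without pLN SPF replicate 1, at -0.96. The SPF and GF mice came from different colonies, and only the SPF line is listed with the CD90.1 allele. Housing, colony and this allele cannot be told apart.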

How the results depend on the processing

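Of 19 alternatives, limma's test against a 2-fold null (treat) moved the counts of called genes most, to 158 higher and 353 lower. Under every other alternative these 2 counts stayed within 1.5 times those reported, and leaving out 1 SPF library at a time gave 365 to 449 higher and 594 to 651 lower genes. Pseudocounts of 0.1 and 0.5 gave 521 and 466 higher and 761 and 692 lower genes, median-of-ratios scaling 335 higher and 675 lower, and voom on recovered reads, added after seeing the data, 492 higher and 799 lower. The replicate block, which pairs same-numbered libraries, left 388 higher and 625 lower genes and changed no other SPF count. For the interaction the block gave 25 genes, the block within each housing, also added after seeing the data, 41, and libraries left out 1 at a time 12 to 27. Treat called 0 interaction genes, with 8 at an unadjusted p below 0.05, and voom called 20. Of 222 called genes named in the text 174 kept the call throughout, 48 lost it at least once, 10 of them under an alternative other than treat, and 0 changed sign.

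Values near 0 that were not called changed sign. Ltbr was at -0.07 with median-of-ratios scaling, -0.05 with quantile normalization, -0.02 with voom and -0.05 to 0.13 with 1 library left out. Prrx2 was at -0.04 with median-of-ratios scaling, -0.00 with quantile normalization, -0.06 with neither library of replicate 2 and -0.24 to 0.35 with 1 library left out. Nfkb1 was at 0.11 with neither library of replicate 2 and -0.14 to 0.10 with 1 left out. With 1 left out Pecam1 was at -0.06 to 0.26 and Tnfrsf1a at -0.12 to 0.04. Fbln1 was at -0.03 with median-of-ratios scaling, and Cadm1 at 0.03 with quantile normalization. The cause was not tested. With 3 libraries per node and 8.13 to 12.3 M recovered reads each, a value under 1 RPKM rests on few reads.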
